A study of Mus musculus with 12 samples.

Results

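The difference between livers labelled as Lix1l knockouts and wild-type (WT) livers was examined as an average over a low-fat diet (LFD) and a high-fat diet (HFD). All 12 RNA-seq libraries of the series entered, 6 labelled knockout against 6 WT, with diet as a covariate. Of 11980 genes tested, 1149 differed in this comparison and 429 of these differed alike on both diets, 265 higher and 164 lower in the livers labelled knockout. Per the labels the animals were knockouts of Lix1l and WT littermates, put on either diet at 6 weeks of age and fed it for 12 weeks. There were 4 groups of 3 animals, WT on LFD, knockout on LFD, WT on HFD and knockout on HFD, and each liver was 1 library. The labels give no deletion design, strain or sex, and the study's stated purpose was to ask how LIX1L affects steatohepatitis.

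The liver takes up fatty acids from blood, activates them to acyl-CoA, and either oxidizes them in mitochondria and peroxisomes, lengthens and desaturates them, or secretes them in lipoproteins. Hepatocytes do this work and make most plasma proteins, albumin first among them. They lie beside fenestrated sinusoidal endothelium, resident macrophages called Kupffer cells, and stellate cells that store vitamin A and lay down matrix. Lix1l encodes a protein with a predicted RNA-binding domain, and Cd36 encodes a fatty acid uptake receptor that is known to rise in mouse liver on fat-rich diets.

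Values are TPM, a share of each library's transcripts that is scaled by transcript length, and changes are differences of log2(TPM + 1), livers labelled knockout minus WT, given with a standard error. Each library had 10265 to 11353 genes at 1 TPM or more, and sequencing depth is unknown because the table holds no counts. The 3 knockout HFD libraries stood apart from the other 9: on the first principal component, which held 38.7% of the variance, they lay at 42.9 to 84.9 and the others at 0.39 or below. One of them, knockout HFD animal 1, also had 22.6% of its TPM in mitochondrially encoded genes, against 7.53% to 12.6% in the other 11. Without that library 1029 genes were called and 564 were alike. Rank correlations across genes were 0.907 to 0.967 within groups and 0.807 to 0.949 between groups. Nothing in the labels says whether the animals of a group came from separate litters or cages, so the p-values measure the spread between these livers.

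Lix1l itself did not separate the groups by its RNA. It was listed at 0.72, 0.58 and 1.08 TPM in the WT LFD livers and 0.27, 0.21 and 0.78 TPM in those labelled knockout on LFD. On HFD it was at 1.18, 1.73 and 0.90 TPM in WT and 1.92, 0.15 and 1.38 TPM in the livers labelled knockout. The gene lies at chr3:96601149-96626171 (GRCm38). The ranges overlap on both diets, and 2 of the 3 knockout HFD libraries exceeded the lowest WT value. The averaged log2 change was -0.26 ± 0.22 (adjusted p = 0.435, and p = 0.305 by an exact 2-sided permutation within diets). A gene-level TPM may count transcripts from a disrupted gene, and the labels do not say which exons were removed. Every direction below therefore rests on the labels, and on taking the columns headed HO as the knockouts, since the authors' KO means equal the means of those columns. Cd36 changed by -1.48 ± 0.38 on average (adjusted p = 0.033, exact permutation p = 0.02), and lost its call under 10 of 28 alternatives. It was not alike on the diets: 16.1, 14.4 and 10.7 TPM in WT and 5.93, 7.29 and 18.4 TPM in knockout livers on LFD overlapped, while 52.8, 58.04 and 39.7 TPM in WT and 6.59, 11.99 and 6.69 TPM in knockout livers on HFD did not.

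Averaged over both diets, 622 genes (5.19% of those tested) were higher and 527 (4.40%) lower in the livers labelled knockout, together 9.59%. Of the calls, 307 changed by more than 1 and 24 by more than 2 on the log2 scale. The diets did not contribute alike. On LFD alone 19 genes (0.159%) were called, on HFD alone 4435 (37.0%), of which 1347 (11.2%) were higher and 3088 (25.8%) lower. The change itself differed between diets for 1157 genes (9.66%), and 125 of the averaged calls were among these. Across all genes tested, which are not independent replicates, the changes on LFD and on HFD correlated with Pearson's r of 0.155 and Spearman's rho of 0.197; the 2 contrasts share no library. The median log2 change of all genes was -0.09 averaged, 0.07 on LFD and -0.25 on HFD. The averaged count leaned on single libraries: it was 582 without WT LFD animal 4. Without WT HFD animals 1, 2 and 6 it was 325, 343 and 219, and without knockout HFD animals 5 and 6 it was 319 and 372. The LFD count was 4 and 5 without WT LFD animals 4 and 8, and 64 without knockout LFD animal 4. It was 8, 7 and 9 when WT HFD animals 1, 2 and 6 were left out of the shared fit, and 12 and 8 when knockout HFD animals 5 and 6 were. The HFD count fell to 2327 and 2617 without WT HFD animals 1 and 6. The count of differences between diets was 221 and 46 without WT LFD animals 7 and 8, and 350, 2047 and 331 without knockout LFD animals 2, 4 and 5. It was 24 and 60 without WT HFD animals 1 and 6, and 533 without knockout HFD animal 5.

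A gene was taken as alike on both diets when it was called in the averaged comparison, when knockout and WT values did not overlap on either diet and moved the same way, and when the smaller of the 2 changes was at least 0.5 of the larger. The 429 genes that met this were 3.58% of those tested, with 265 higher (2.21%) and 164 lower (1.37%). No overlap in the same direction on both diets was found for 437 genes upward (3.65%) and 390 downward (3.26%), and in opposite directions for 319 (2.66%). Calls with no overlap numbered 645 before the rule on size. Just inside that rule lay Amdhd1 and Fam89a, with ratios of 0.502, and just outside Ptbp3 and Msmp, with 0.498 and 0.499. Of the alike genes, 107 changed by more than 1, and the median absolute log2 change was 0.77. The change on LFD was the larger for 118 of them. For 279 alike genes all 6 knockout values lay on one side of all 6 WT values, which held for 490 of all genes tested (4.09%). Choosing genes with no overlap within either diet favours that separation. Only 4 of the 429 were called on LFD alone and 371 on HFD alone, beside 0.159% and 37.0% of all genes tested. The averaged call and the rule of no overlap favour calls on each diet too. For none was the difference between diets called, as the rule on size favours. Without WT HFD animals 1, 2 or 6 the number of alike genes was 242, 242 and 177, and without knockout HFD animals 5 or 6 it was 233 and 255.

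**Figure D1:**
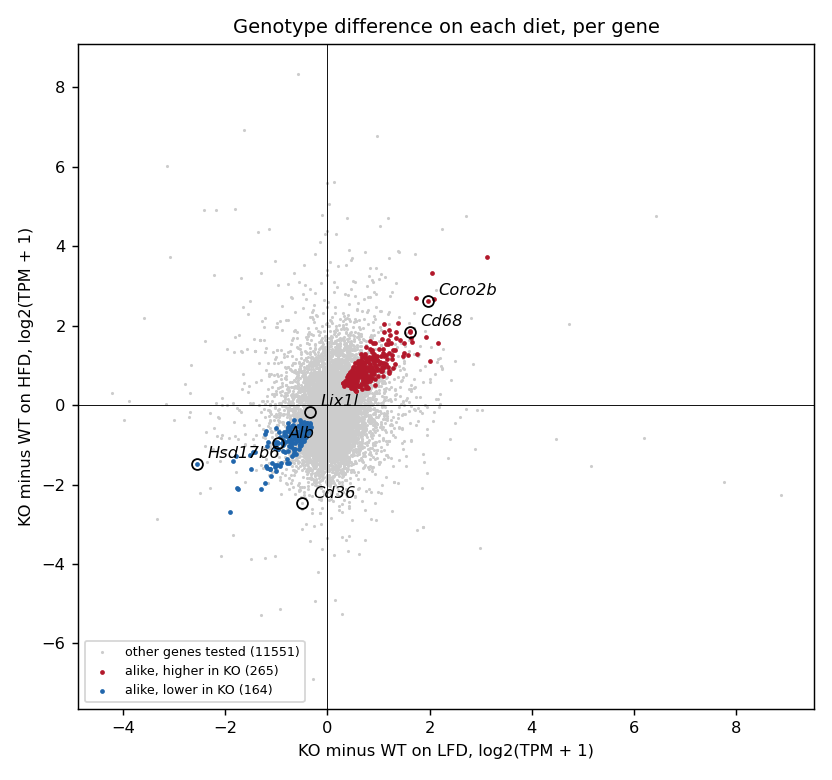
Each point is a gene, with its log2 change on LFD on the horizontal and on HFD on the vertical axis (KO stands for livers labelled knockout). The 265 alike genes that were higher and the 164 that were lower lie along the rising diagonal, as the rules that chose them require. Cd36 lies near the vertical axis at -2.47 on HFD and -0.49 on LFD.

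The risers and fallers had different median levels. The 265 risers had a median level of 2.33 TPM and 5 of them averaged 100 TPM or more, whereas the 164 fallers had a median of 9.78 TPM with 21 at 100 TPM or more. Over all genes tested the median was 5.91 TPM and 877 reached 100 TPM. Their median log2 changes were 0.71 on LFD and 0.85 on HFD for the risers, and -0.65 and -0.81 for the fallers. Protein-coding genes made up 239 of the risers and 141 of the fallers, and 18 of the alike loci carried no gene symbol. All 19 autosomes and the X chromosome held alike genes, with 22 of 551 tested (3.99%) on chromosome 3, where Lix1l lies, near the 3.58% of all genes. Within 5 Mb on each side of Lix1l, 8 of 90 tested genes were called and 4 were alike, which is near the 9.59% and 3.58% of all genes.

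Cnbd2 and Coro2b had the widest averaged rises among alike genes that averaged at least 1 TPM and had neither a predicted nor a missing symbol. Coro2b, which encodes an actin-binding coronin and lies at chr9:62419492-62537044, was at 3.58, 9.84 and 6.53 TPM in WT and 16.7, 21.4 and 54.4 TPM in knockout livers on LFD. On HFD it was at 13.3, 22.7 and 16.5 TPM in WT and 99.4, 145 and 94.9 TPM in knockout livers, so the groups were apart on each diet although HFD WT livers overlapped with LFD knockout livers. The averaged log2 change of Coro2b was 2.30 ± 0.31 (adjusted p = 0.00439). Cnbd2, named for a cyclic nucleotide-binding domain, was steady in WT at 1.62 to 2.38 TPM and spread from 5.13 to 38.3 TPM in the livers labelled knockout. Its log2 change was 2.38 ± 0.34 (adjusted p = 0.00443).

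C4a, annotated as a processed transcript of a complement component and sharing sequence with its neighbour C4b, rose by 2.21 ± 0.33 (adjusted p = 0.00604). Its TPM on LFD were 2.71, 3.77 and 3.52 in WT and 15.7, 5.50 and 25.7 in knockout livers, and on HFD 8.04, 16.4 and 12.7 in WT and 99.7, 89.1 and 64.1 in knockout livers. C4a values lay higher on HFD than on LFD in both genotypes, and the groups did not overlap within a diet. Reads of C4a and C4b may be exchanged, since 0.433 of the 31-base words of C4a occur in other genes. C4b also rose, by 0.84 ± 0.20 (adjusted p = 0.029), but lost its call under 10 of 28 alternatives. Fabp4, a fatty acid-binding protein of adipocytes, macrophages and endothelium, was listed at 0.80 to 3.14 TPM in the 6 WT livers and 6.98 to 15.1 TPM in the 6 labelled knockout. Its log2 change of 1.82 ± 0.24 (adjusted p = 0.00439) was made up of 1.93 on LFD and 1.71 on HFD. Of 4 adipose markers tested, Fabp4 alone was called; Cfd, Lipe and Cidec had averaged changes of -2.18 ± 0.72, -0.48 ± 0.29 and -1.30 ± 0.50, and the adipocyte hormone Lep was listed at 0 in all libraries.

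The gene of the sugar-sensing lipogenic factor ChREBP, Mlxipl, rose by 1.25 ± 0.24 (adjusted p = 0.0141). It lay at 13.99 to 22.1 TPM in the 6 WT livers and 20.9 to 76.4 TPM in the 6 labelled knockout, which overlap only between diets. Of 25 glucose genes, 3 were lower (Insr, Ugp2 and Fbp1), none of them alike, and 1 was higher and alike. Of all genes 4.40% were lower and 5.19% higher. The falls numbered 1 without WT LFD animal 4, 5 without knockout LFD animal 5, and 0 without knockout LFD animal 4, any 1 WT HFD animal or knockout HFD animal 5 or 6. Cyp26a1, the main retinoic acid-degrading enzyme of liver, was at 0.39 to 2.09 TPM in WT and 3.26 to 8.60 TPM in knockout livers, a change of 1.63 ± 0.25 (adjusted p = 0.00647). The 6 and 6 values of Cyp26a1 did not overlap across the diets.

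**Figure D2:**
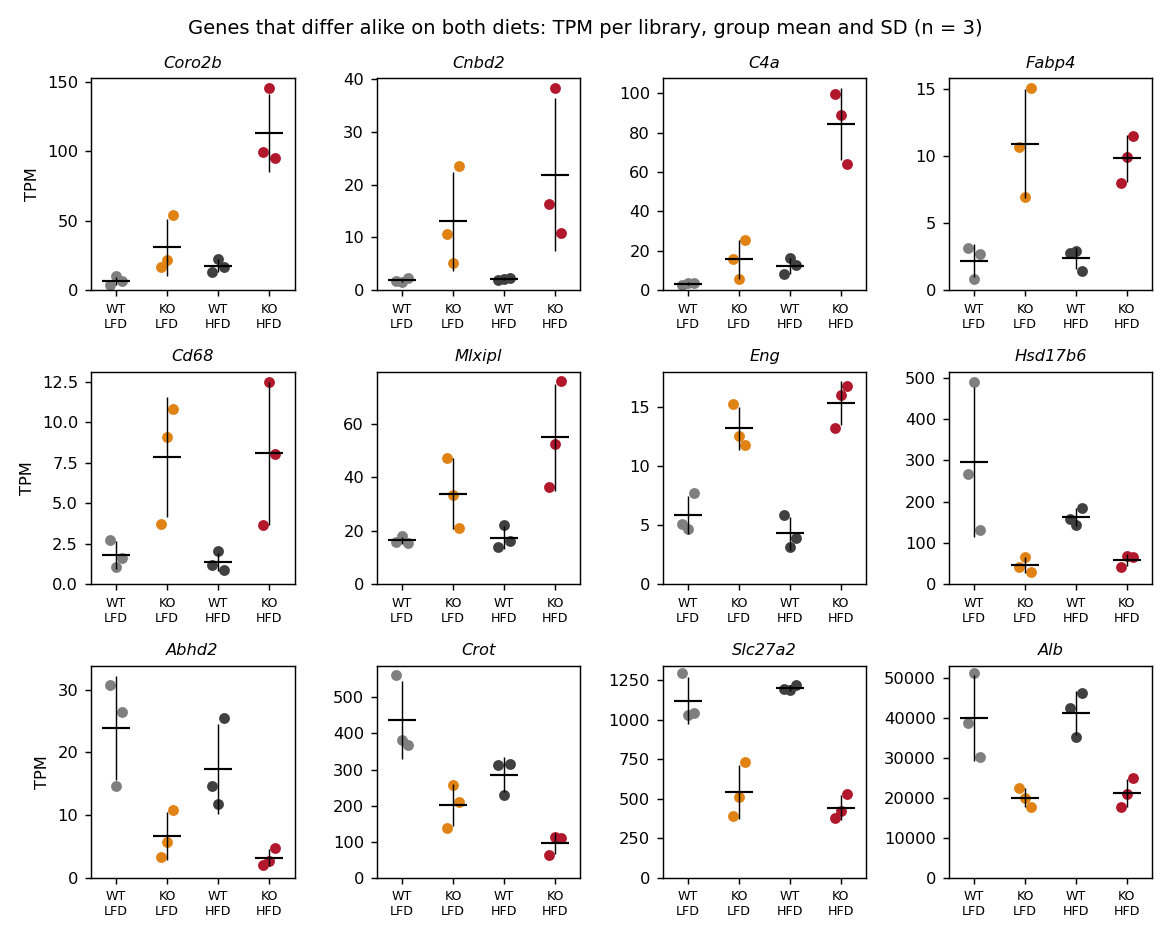
TPM of 12 alike genes in each of the 12 libraries on linear axes (KO stands for livers labelled knockout); points are libraries, bars the group mean and lines the SD of 3. Coro2b and C4a shift with diet as well as genotype, whereas Alb lies at 30047 to 51216 TPM in WT and 17654 to 24810.3 TPM in knockout livers on both diets.

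Endothelial markers were higher on average, with changes above 0 on both diets. Of 21 tested, 19 were higher in the livers labelled knockout and none was lower, against 5.19% of all genes higher, and 13 were alike. Their median log2 change was 0.96 averaged, 0.77 on LFD and 0.96 on HFD, beside -0.09, 0.07 and -0.25 for all genes tested. All 21 changes were above 0 on each diet. On HFD alone 17 were called, all higher, against 11.2% of all genes higher on HFD. On LFD alone limma called 0, with 16 higher at an unadjusted p below 0.05. The share of all genes at that unadjusted p on LFD was not computed, here or for the lists below. Eng, endoglin, a co-receptor for BMP and TGF-beta ligands, was at 5.13, 4.69 and 7.71 TPM in WT and 15.3, 12.6 and 11.8 TPM in knockout livers on LFD, and at 5.86, 3.17 and 3.86 TPM in WT and 13.2, 16.03 and 16.8 TPM in knockout livers on HFD. Its log2 change was 1.36 ± 0.18 (adjusted p = 0.00439), and all 6 knockout values exceeded all 6 WT values.

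Esam, an endothelial adhesion molecule, lay at 1.13 to 3.08 TPM in WT and 4.54 to 6.19 TPM in knockout livers (log2 change 1.13 ± 0.15, adjusted p = 0.00439). The junction genes Pecam1 and Cdh5 rose by 1.10 ± 0.18 and 1.01 ± 0.17. The receptor genes rose as well, Tek by 0.67 ± 0.12, Kdr by 0.75 ± 0.18 and Tie1 by 0.56 ± 0.14. Markers of sinusoidal endothelium were among the alike genes as well: Clec4g rose by 1.33 ± 0.25, Dnase1l3 by 1.22 ± 0.23, Oit3 by 1.14 ± 0.21, Lyve1 by 1.02 ± 0.19 and Stab2 by 0.71 ± 0.14. Ramp2, Fcgr2b, Ptprb, Bmp2, Egfl7 and Stab1 rose without being alike, Ramp2 for instance by 0.80 on LFD and 2.40 on HFD. Summed over the 23 listed markers, WT livers held 72.0 to 92.6 TPM on LFD and 47.9 to 73.9 TPM on HFD. The livers labelled knockout held 146 to 166 TPM on LFD and 169.9 to 184 TPM on HFD, with no overlap. In RNA from whole tissue, fewer cells of a type and less RNA per cell cannot be told apart, nor can more cells and more RNA per cell. The endothelial count was 12 without WT HFD animal 2, WT HFD animal 6 or knockout HFD animal 5.

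Further endothelial genes stood among the 265 risers outside that list, among them Nos3, Robo4, Sox18, Erg, Mmrn2, Plvap and Gpihbp1; these were picked after their values were seen. Gpihbp1 anchors lipoprotein lipase on capillaries, and its log2 change was 1.36 ± 0.22. Erg, a transcription factor of endothelium, changed by 0.74 ± 0.17, and Nos3, endothelial nitric oxide synthase, by 0.58 ± 0.12.

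Kupffer cell and macrophage markers were higher on average, but varied widely between livers. Of 18 tested, 13 rose and none fell, against 5.19% of all genes higher. Alike were 4, Cd68, Spi1, Fcgr1 and Cd163, against 2.21% of all genes alike and higher. The median log2 change was 1.30 averaged, 1.40 on LFD and 1.30 on HFD. On HFD alone 7 were called, all higher, against 11.2% of all genes higher on HFD. On LFD alone 0 were called by limma, with 15 higher at an unadjusted p below 0.05. Cd68, a lysosomal glycoprotein of macrophages, was at 2.74, 1.05 and 1.58 TPM in WT and 3.70, 9.09 and 10.8 TPM in knockout livers on LFD, and at 1.18, 2.01 and 0.89 TPM in WT and 3.66, 12.5 and 8.07 TPM in knockout livers on HFD. It rose by 1.73 ± 0.29 (adjusted p = 0.0097). Spi1, which encodes the myeloid transcription factor PU.1, rose by 1.16 ± 0.25, with 1.16 on LFD and 1.16 on HFD. Clec4f, a lectin of Kupffer cells, was at 28.7, 20.03 and 25.5 TPM in WT and 32.2, 78.1 and 71.8 TPM in knockout livers on LFD, and 20.8, 6.22 and 11.3 TPM in WT and 20.6, 132 and 77.1 TPM in knockout livers on HFD. For Clec4f, knockout HFD animal 1 at the low end overlapped with WT livers.

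The marker sums had the same spread, 101 to 177 TPM in WT and 224 to 623 TPM in knockout livers on LFD, then 79.4 to 153 TPM and 96.4 to 538 TPM on HFD. The lowest knockout HFD sum belonged to animal 1. Without that library 17 of the 18 markers were called. The count was 6 and 7 without WT LFD animals 4 and 7, and 4 without knockout LFD animal 4. Without WT HFD animals 1, 2 and 6 it was 4, 2 and 1, and without knockout HFD animal 5 or 6 it was 3. Other myeloid genes among the named risers were Wfdc17 at 1.74 ± 0.38, Cfp at 1.66 ± 0.32, Fcna at 1.55 ± 0.33, Gngt2 at 1.58 ± 0.28 and Lst1 at 1.49 ± 0.32. Cfp encodes properdin, which stabilizes the alternative complement convertase, and Fcna encodes ficolin A of the lectin pathway. Of 8 recruited macrophage markers 3 rose, against 5.19% of all genes higher, with Cd52 alike at 1.40 ± 0.27. Without WT HFD animal 1, 2 or 6 or knockout HFD animal 5 or 6, 1 rose, and without knockout HFD animal 1, 5 did.

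**Figure D3:**
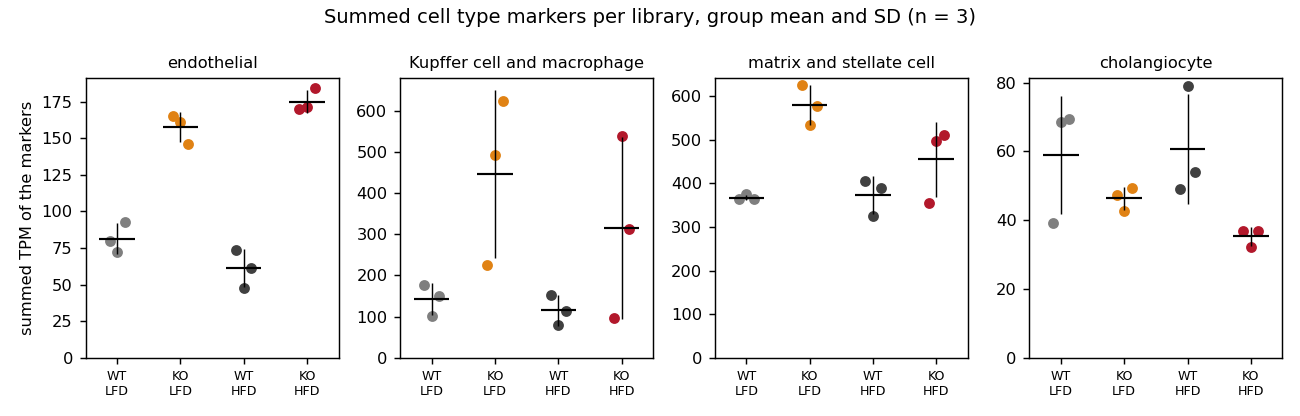
Summed TPM of 4 sets of cell type markers in each library (KO stands for livers labelled knockout); points are libraries, bars the group mean and lines the SD of 3. Endothelial sums separate the genotypes on both diets, 47.9 to 92.6 TPM against 146 to 184 TPM, while the macrophage sum of 1 knockout HFD liver lies among the WT livers at 96.4 TPM.

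Matrix and stellate cell genes rose in part, with 11 of 28 tested higher, none lower and 6 alike, against 5.19% of all genes higher and 2.21% alike and higher. Their median log2 change was 0.54 averaged, 0.60 on LFD and 0.49 on HFD. Vim, the intermediate filament vimentin of mesenchymal cells, was at 3.54 to 4.86 TPM in WT and 6.80 to 18.03 TPM in knockout livers, a change of 1.21 ± 0.21 (adjusted p = 0.0105). Sparc, a matrix glycoprotein, was at 4.83 to 8.17 TPM in WT and 7.46 to 24.2 TPM in knockout livers. Col6a1 rose by 0.65 ± 0.12, Lama4 by 0.63 ± 0.17 and Col5a1 by 0.54 ± 0.15. Lrat, which esterifies retinol for storage in stellate cells, rose by 0.64 ± 0.17 at a low level of 0.35 to 0.96 TPM in WT. Lrat thus passed the level for testing, 1 TPM, only through livers labelled knockout. The fibrillar collagens Col1a2 and Col3a1 did not pass the test, with averaged changes of 0.45 ± 0.16 and 0.60 ± 0.29, and Col1a1 did not reach the level for testing. The number called was 4 and 7 without WT LFD animals 4 and 7, and 7 without knockout LFD animal 4. Without WT HFD animals 1, 2 and 6 it was 6, 4 and 4, and without knockout HFD animals 5 and 6 it was 4 and 5.

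Of 22 cytokines and chemokines, 4 rose and 1 fell, and 3 were alike, against 5.19% of all genes higher and 4.40% lower. The rises numbered 2 without WT HFD animal 1, and 1 without WT HFD animal 2 or 6 or knockout HFD animal 5 or 6. Tgfb1, a fibrogenic and immunosuppressive cytokine, was at 1.61, 0.90 and 1.48 TPM in WT and 3.42, 3.36 and 3.99 TPM in knockout livers on LFD and at 1.09, 0.75 and 1.31 TPM in WT and 1.80, 2.97 and 2.49 TPM in knockout livers on HFD. Its log2 change was 0.86 ± 0.14 (adjusted p = 0.00955), with no overlap across the 12 livers. Csf1, the macrophage growth factor, rose by 0.52 ± 0.11 and Cxcl16, a transmembrane chemokine, by 0.77 ± 0.18. Il1rn, the interleukin-1 receptor antagonist, changed by -1.11 ± 0.27 without being alike, its LFD values overlapping.

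Markers of other cells were few or did not pass. Of 5 cholangiocyte, 5 erythroid, 3 B and plasma cell, 2 T and NK cell and 2 pancreas markers tested with limma, none was called. At an unadjusted p below 0.05, 3 cholangiocyte markers were lower and 2 B and plasma cell markers higher. No erythroid, T and NK cell or pancreas marker passed (0). The share of all genes at that unadjusted p, averaged over both diets, was not computed. Of 2 neutrophil markers, S100a8 rose by 1.58 ± 0.46 (adjusted p = 0.04998), a call that was lost under 17 of 27 alternatives, and S100a9 did not pass at 1.59 ± 0.49 (adjusted p = 0.0599). Summed neutrophil markers were at 1.88 to 5.36 TPM in WT and 5.44 to 78.9 TPM in knockout livers. No skeletal muscle marker reached the level for testing, and Mb and Pvalb were listed at 0 throughout. Summed B and plasma cell markers ranged from 15.9 to 121 TPM in WT and from 52.2 to 338 TPM in knockout livers. Their part in the other results was not tested.

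Genes of fatty acid oxidation, which hepatocytes express at high level, were lower on average in part. Of 29 mitochondrial and ketogenic genes tested, 15 were lower in the livers labelled knockout and none higher, against 4.40% of all genes lower, and 6 were alike. The list's median log2 change was -0.79 averaged, -0.46 on LFD and -1.07 on HFD. On HFD alone 21 were called lower, against 25.8% of all genes lower on HFD. On LFD alone 0 were called by limma, with 10 lower and 1 higher at an unadjusted p below 0.05. Crot, which moves medium-chain acyl groups from peroxisomes onto carnitine, was at 562, 382 and 367 TPM in WT and 139, 256 and 209 TPM in knockout livers on LFD. On HFD Crot was at 312, 230.3 and 315 TPM in WT and 62.8, 114 and 109 TPM in knockout livers, and the averaged change was -1.37 ± 0.22 (adjusted p = 0.00877). Ppargc1a, a coactivator that drives oxidative genes, was at 0.84 to 2.16 TPM in WT and 0.21 to 0.97 TPM in knockout livers. Its change was -0.71 on LFD and -0.69 on HFD, and WT HFD livers overlapped with LFD livers labelled knockout. Ppargc1a passed the level for testing only through WT livers, as its knockout values lay below 1 TPM.

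Bdh1, the ketone body dehydrogenase, changed by -0.99 ± 0.19, and the enoyl-CoA isomerase Eci1 and dienoyl-CoA reductase Decr1 by -0.79 ± 0.15 and -0.88 ± 0.20. Cpt1a, the carnitine palmitoyltransferase that gates entry into mitochondria, changed by -1.38 ± 0.28 but its LFD values overlapped, at 194, 92.3 and 139.7 TPM and 38.5, 57.6 and 117 TPM. The trifunctional protein subunits Hadha and Hadhb and the electron acceptor Etfdh were lower on average without being alike. Etfdh changed by -0.51 on LFD and -2.31 on HFD (adjusted p of the difference = 0.0514). The number of oxidation genes called was 9 without WT LFD animal 4. Without WT HFD animals 1, 2 and 6 it was 6, 6 and 4, and without knockout HFD animals 5 and 6 it was 5 and 9. The endothelial marker sums given above were higher in every liver labelled knockout than in the WT livers of its diet. The macrophage sums were too, except in knockout HFD animal 1, which lay among WT livers at 96.4 TPM. The part of either in these falls was not tested.

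Genes of fatty acid uptake and activation were called in part. Of 18 tested, 3 fell (Slc27a2, Acsl1 and Cd36) and Fabp4 alone rose, against 4.40% of all genes lower and 5.19% higher. The falls numbered 5 and 6 without knockout LFD animals 2 and 5, and 1 without WT HFD animal 1 or 6 or knockout HFD animal 5. Slc27a2, a fatty acid transporter and very-long-chain acyl-CoA synthetase, was at 1292, 1027 and 1040.0 TPM in WT and 392, 511 and 729 TPM in knockout livers on LFD. On HFD it was at 1194, 1184 and 1218 TPM in WT and 376, 421 and 532 TPM in knockout livers. The change was -1.26 ± 0.18 (adjusted p = 0.00443), and the lowest WT liver exceeded the highest knockout liver on either diet. Acsl1, the main long-chain acyl-CoA synthetase of liver, changed by -1.01 ± 0.23 (adjusted p = 0.0236). Of 29 peroxisomal genes 5 fell and none rose, against 4.40% of all genes lower, with Abcd2, a transporter of very-long-chain acyl-CoA, alike at -1.55 ± 0.29. The falls numbered 9 without WT LFD animal 7, 8 and 12 without knockout LFD animals 2 and 5, 2 without knockout HFD animal 1, and 1 without any other HFD library or WT LFD animal 4. Among alike genes outside these lists, picked after their values were seen, Phyh, which starts alpha-oxidation of phytanic acid, changed by -0.51 ± 0.13. The peroxisomal reductase Decr2 changed by -0.88 ± 0.14 and the epoxide hydrolase Ephx2 by -0.66 ± 0.16. The mitochondrial pyruvate carrier subunit Mpc1 changed by -0.75 ± 0.19.

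The elongases that build polyunsaturated fatty acids were lower with no overlap on either diet. Elovl5 was at 302, 215 and 300.2 TPM in WT and 159, 101 and 62.6 TPM in knockout livers on LFD, and at 146, 170.4 and 132 TPM in WT and 54.5, 57.9 and 86.1 TPM in knockout livers on HFD, a change of -1.30 ± 0.22 (adjusted p = 0.0097). Elovl2, which acts after it, changed by -0.99 ± 0.16, with -1.03 on LFD and -0.95 on HFD. These were the 2 falls among 19 lipogenic genes, and Mlxipl was the only rise, against 4.40% of all genes lower and 5.19% higher. The median of the lipogenic list was -0.02 averaged, 0.60 on LFD and -0.89 on HFD.

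Among steroid and retinoid dehydrogenases 4 fell alike, while the list as a whole differed between diets. Of 22 hydroxysteroid dehydrogenases and steroid enzymes tested, 4 were lower, all 4 of them alike, and none was higher, against 4.40% of all genes lower. The list's median was 0.09 on LFD and -1.23 on HFD, and 13 members had opposite signs on the diets. The difference between diets was called for 7, against 9.66% of all genes. Hsd17b13, a lipid droplet protein with retinol dehydrogenase activity, was at 503, 479 and 483 TPM in WT and 187, 209 and 233 TPM in knockout livers on LFD. On HFD it was at 411, 362 and 412 TPM in WT and 65.2, 111 and 138 TPM in knockout livers, a log2 change of -1.59 ± 0.20 (adjusted p = 0.00439). No liver labelled knockout reached the lowest WT value of Hsd17b13 on either diet. Hsd17b6 changed by -2.01 ± 0.33 (adjusted p = 0.00968), with -2.55 on LFD and -1.48 on HFD (adjusted p of the difference = 0.233). Hsd17b11, another lipid droplet dehydrogenase, changed by -0.97 ± 0.16, and Hsd11b1, which regenerates active glucocorticoid, by -0.76 ± 0.21.

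Of 23 hepatocyte factors and secreted proteins 1 rose and 1 fell, and of 24 apolipoprotein and lipoprotein genes likewise 1 each, near the 9.59% of all genes called in either direction. Alb, serum albumin, had equal log2 changes of -0.97 on LFD and -0.97 on HFD. It held 38562, 51216 and 30047 TPM in WT and 22324, 19950.2 and 17654 TPM in knockout livers on LFD, and 42429.9, 35234 and 46059.6 TPM in WT and 17756, 20984 and 24810.3 TPM in knockout livers on HFD. The averaged change was -0.97 ± 0.17 (adjusted p = 0.0118), a 1.96-fold difference, and no WT liver overlapped with a knockout liver. Since TPM are shares that sum to 1000000 in each library, the TPM that Alb loses are spread over all other RNAs. The part of this in the rises was not tested. Apob, the scaffold of very-low-density lipoprotein, changed by -0.63 ± 0.14 (adjusted p = 0.0216). Vtn, vitronectin, rose by 0.71 ± 0.17, with 1343 to 1974 TPM in WT and 1781 to 3556 TPM in knockout livers, and Pltp, the phospholipid transfer protein, by 1.11 ± 0.25. Vtn lost its call under 11 of 28 alternatives.

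Further named fallers spanned several functions. Abhd2, a monoacylglycerol lipase, was at 30.7, 14.6 and 26.5 TPM in WT and 3.38, 5.77 and 10.9 TPM in knockout livers on LFD and at 14.7, 11.8 and 25.4 TPM in WT and 2.09, 2.72 and 4.74 TPM in knockout livers on HFD, a change of -1.93 ± 0.29 (adjusted p = 0.00611). The cationic amino acid transporter Slc7a2 changed by -1.36 ± 0.16, the bicarbonate cotransporter Slc4a4 by -1.44 ± 0.24 and butyrylcholinesterase, Bche, by -1.33 ± 0.18. Acss3, a mitochondrial short-chain acyl-CoA synthetase, changed by -1.27 ± 0.18 and Defb1, an epithelial defensin, by -1.38 ± 0.19. Krt23, a keratin, and Pnldc1, a ribonuclease that trims piRNAs in the germ line, changed by -1.54 ± 0.26 and -1.39 ± 0.25. Nr1d1, the clock repressor REV-ERB alpha, was at 28.4 to 38.1 TPM in WT and 5.67 to 21.5 TPM in knockout livers (change -1.11 ± 0.25). Of 19 clock genes 2 were lower and none higher, against 4.40% and 5.19% of all genes, and Nr1d1 alone was alike. Time of sampling is not given in the labels.

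Ugt1a9 had the widest averaged fall among the alike genes named, -2.30 ± 0.39 (adjusted p = 0.00981), but it is uncertain because its transcripts share exons with the other Ugt1a genes. Of 38 phase II conjugation genes, 6 fell and none rose, against 4.40% of all genes lower, with Ugt1a9 and Ugt3a1 alike. The falls numbered 2 without knockout HFD animal 6, and 1 without knockout HFD animal 5 or any 1 WT HFD animal. Entpd4b, Ctla2b and Mug-ps1 are uncertain for the same reason, at least 0.5 of the 31-base words of their transcripts being found in other genes, as for 16 of the 411 alike genes with annotated transcripts. Crot, Slc27a2, Slc7a2, Eng, Nr1d1, Acss3, Pnldc1, Pltp, Cd52, Fcna, Gngt2, Cnbd2 and Abhd11os overlap an exon of a gene on the opposite strand. No source used here says whether the counting used strand, so reads of such partners may be mixed.

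Some bile acid and urea cycle genes fell, none of them alike. Of 24 bile acid and sterol transport genes, 6 were lower and none was alike, against 4.40% of all genes lower. The list's median was 0.09 on LFD and -0.85 on HFD. The falls numbered 3 without WT LFD animal 4 or knockout LFD animal 4. They numbered 1, 2 and 0 without WT HFD animals 1, 2 and 6, and 1 and 2 without knockout HFD animals 5 and 6. Cyp7a1, the rate-limiting enzyme of bile acid synthesis, changed by -1.74 ± 0.42 (adjusted p = 0.0285), with LFD values of 40.97, 17.3 and 41.1 TPM in WT and 3.30, 5.90 and 25.1 TPM in knockout livers that overlapped. Cyp8b1, the sterol 12-alpha-hydroxylase, changed by -1.39 ± 0.28 and the phospholipid exporter Abcb4 by -0.87 ± 0.20. Of 30 urea cycle and amino acid genes 4 fell, against 4.40% of all genes lower, among them Otc, ornithine transcarbamylase, at -0.80 ± 0.20. Otc lost its call under 11 of 28 alternatives. The falls numbered 2 without WT LFD animal 8 or knockout HFD animal 1, 0 without WT HFD animal 1 or 6, and 1 without WT LFD animal 4, knockout LFD animal 4, WT HFD animal 2 or knockout HFD animal 5 or 6.

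Several lists had medians on opposite sides of 0 on the 2 diets, so that the average describes neither. The acute phase list, 26 genes, had a median of 1.27 on LFD and -0.75 on HFD, and Il1r1 alone was called, at 0.95 ± 0.22. The difference between diets was called for 14 of the 26, against 9.66% of all genes. Cholesterol synthesis genes, 26 tested, had a median of 1.03 on LFD and -0.88 on HFD, with 22 of opposite sign on the diets. None of them was called, and 1 was higher at an unadjusted p below 0.05. With limma no ribosomal protein (78), respiratory chain subunit (60), proteasome subunit (34), stress response gene (27) or MHC class II gene (6) was called. At an unadjusted p below 0.05, 9 ribosomal protein genes were higher and 2 lower, 3 respiratory chain genes higher and 10 lower, 1 proteasome gene higher and 2 lower, 5 stress response genes higher and 1 lower, and 0 MHC class II genes passed. The share of all genes at that unadjusted p in the averaged comparison was not computed, so these counts have no background beside them. Of 42 interferon-stimulated genes 2 rose and 3 fell, none of them alike, near the 9.59% of all genes called. No fall was called (0) without WT LFD animal 4, knockout LFD animal 4, any 1 WT HFD animal or knockout HFD animal 5 or 6.

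**Figure D4:**
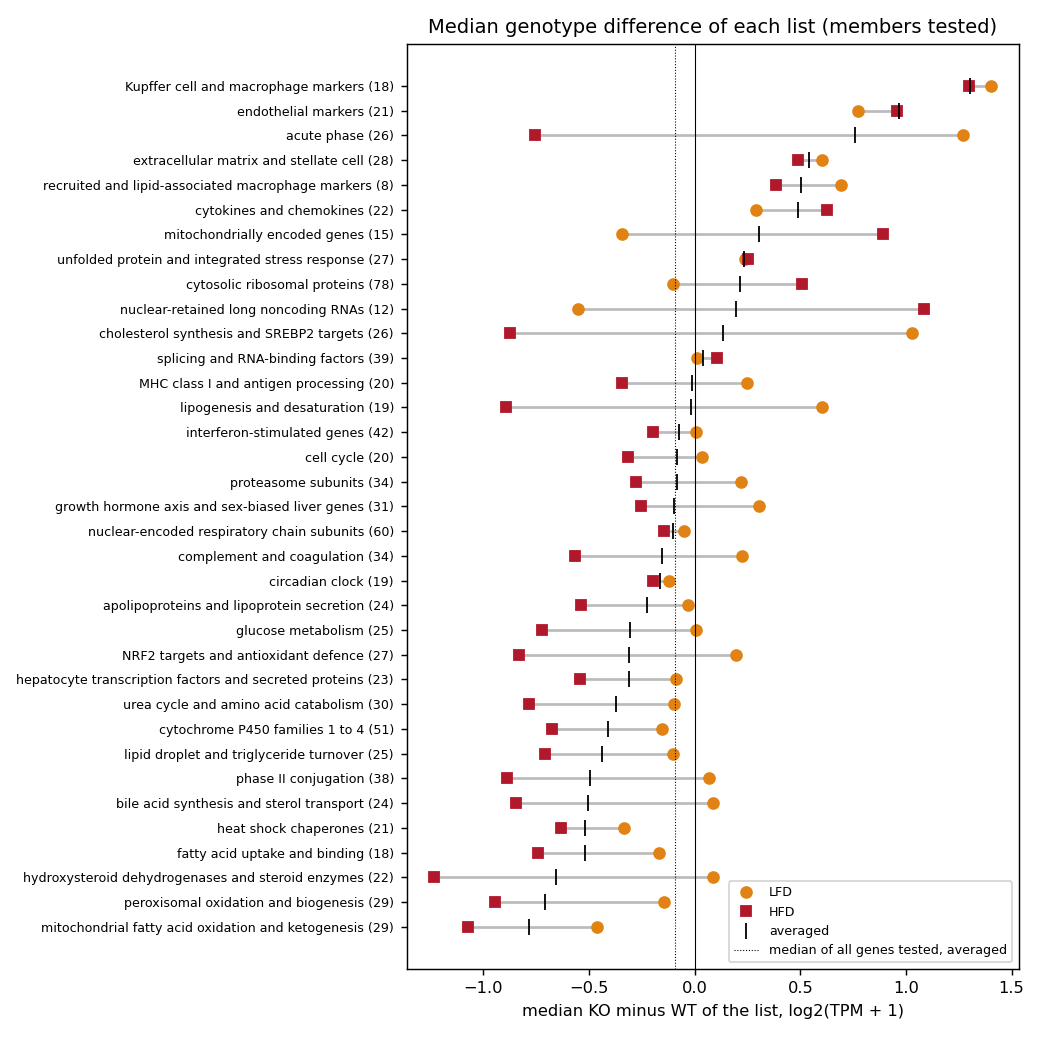
Median log2 change of each list with at least 8 tested members, on LFD (circles), HFD (squares) and averaged (bars); the dotted line is the averaged median of all genes tested, -0.09. Endothelial and Kupffer cell lists lie to the right on both diets at 0.77 to 1.40, the oxidation list to the left, and the acute phase and cholesterol lists change side.

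Promoter sequence was compared for the alike genes, which were chosen for moving the same way on both diets. Sequences of the 250 bases before the start site from RefSeq (GRCm38.p6) were matched by symbol for 171 of 265 risers, 120 of 164 fallers and 8563 of 11980 genes tested, and searched on both strands. The PU.1 motif GAGGAAGT was in 2.92% of risers, 5.83% of fallers and 2.28% of all promoters. The ETS motif CAGGAAG, which shares the letters AGGAAG with it, was in 12.3%, 12.5% and 9.79%. The C/EBP motif TTGCNNAA was in 4.68% of risers, 6.67% of fallers and 7.94% of all, and the HNF4 motif CAAAGTCCA in 0.585%, 0% and 0.502%. The nuclear receptor half-site AGGTCA was in 12.9%, 13.3% and 11.2%, and the E-box CACGTG in 4.09%, 10% and 8.70%. Shares in the alike genes differed from those in all promoters by a few percentage points, but rare motifs rest on few genes. PU.1 was matched in 5 risers and 7 fallers, the E-box in 7 and 12, and HNF4 in 1 and 0. No difference in share was tested. The upstream sequences of 2 fallers of high level and of 1 macrophage and 1 endothelial riser are shown 5′ to 3′ on the gene's strand, to give the context of matches, which are in capitals.
Alb, chr5:90460620-90460869, plus strand, with a C/EBP match on the other strand: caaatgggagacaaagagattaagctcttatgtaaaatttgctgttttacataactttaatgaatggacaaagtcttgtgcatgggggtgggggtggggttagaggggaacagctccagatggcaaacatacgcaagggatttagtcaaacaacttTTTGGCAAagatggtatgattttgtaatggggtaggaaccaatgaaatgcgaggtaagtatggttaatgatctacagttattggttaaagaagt
Slc27a2, chr2:126552774-126553023, plus strand, with a nuclear receptor half-site on the other strand: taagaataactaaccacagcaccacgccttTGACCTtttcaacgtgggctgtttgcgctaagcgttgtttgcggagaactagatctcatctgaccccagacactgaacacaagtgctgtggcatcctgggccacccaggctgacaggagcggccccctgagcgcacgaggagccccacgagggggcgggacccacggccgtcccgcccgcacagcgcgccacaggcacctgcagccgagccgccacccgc
Cd68, chr11:69666171-69666420, minus strand, with a C/EBP match: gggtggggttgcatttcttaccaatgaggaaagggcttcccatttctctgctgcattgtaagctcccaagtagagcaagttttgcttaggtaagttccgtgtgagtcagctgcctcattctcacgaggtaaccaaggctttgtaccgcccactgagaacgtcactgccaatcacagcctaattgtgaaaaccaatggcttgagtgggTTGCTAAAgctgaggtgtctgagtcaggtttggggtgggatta
Eng, chr2:32646345-32646594, plus strand, with a PU.1 match on the other strand: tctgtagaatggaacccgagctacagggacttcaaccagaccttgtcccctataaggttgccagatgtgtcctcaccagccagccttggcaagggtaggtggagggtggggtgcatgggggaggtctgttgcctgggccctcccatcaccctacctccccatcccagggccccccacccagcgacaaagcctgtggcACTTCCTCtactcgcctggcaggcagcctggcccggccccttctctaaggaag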

How the data were processed

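Snap-frozen livers of 12 mice were profiled by poly(A) RNA-seq with a TruSeq kit, per the labels' protocols. Per the submitters' processing notes the tools were HISAT2 and StringTie and the build mm10, and no source used here gives their versions. TPM of 56107 genes, without counts, are what the authors deposited. WT columns were assigned by name. The 6 knockout columns are headed HO in the table, not KO, and were taken as the knockouts because the means that the authors deposited under KO are the means of these columns, all group means lying within 3.33e-05 TPM of recomputed ones. Positions and symbols are from GENCODE M21 (GRCm38).

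Rows with at least 1 TPM in at least 3 libraries were fitted as log2(TPM + 1) with limma 3.58.1 in R 4.3.3, genotype plus diet (9 residual degrees of freedom), with a trended prior, 2-sided tests and Benjamini-Hochberg adjustment over 11980 genes, called below 0.05. Each diet and the difference between diets came from 1 mean per group. The code of the fit was run on simulated data, with independent normal values and WT spreads in every group. Those data do not cover libraries that stand apart, as the knockout HFD libraries do. The pseudocount of 1 understates changes of low genes, and an exact 0 may be a failed estimate. Genes near 1 TPM may have passed the filter through 1 genotype only. Lix1l and Cd36 had a further test, an exact 2-sided permutation of genotype within diets (400 arrangements, smallest p 0.005); genes alike on both diets reach that p by their choice, so it is not given for them. The genes named were Lix1l, Cd36, the 15 widest alike rises and falls averaging 1 TPM or more and having a proper symbol, and the 2 members of each of 44 lists with the lowest p. Members and lists were chosen with earlier results of these data known. Some genes of these lists are counted but not reported here by name. Other genes named were picked from the lists or after their values were seen. Alternatives were 3 other pseudocounts, 3 filters, 3 scalings, other models and weights, a replicate block, each diet alone and leaving out each library. Plots were made in matplotlib 3.10.9 (Python 3.11.15).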

Additional observations from a re-analysis of the deposited data

Results flagged for a closer look

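For 9 of the 107 named genes the genotype change differed between the diets by limma's test of the difference itself (Benjamini-Hochberg adjusted), so that an averaged value describes neither diet. Each is given as the change on HFD minus the change on LFD, in log2(TPM + 1). Cd36 differed by -1.98 ± 0.51 (adjusted p = 0.0379), with -2.47 on HFD and -0.49 on LFD. The MHC class I gene H2-Q1 differed by 5.80 ± 0.80 (adjusted p = 0.00939): it was at 5.88, 11.8 and 3.94 TPM in WT and 1000.1, 969 and 586 TPM in knockout HFD livers, against 1.86, 1.60 and 2.87 and 2.84, 17.1 and 2.15 TPM on LFD. Cfd, adipsin, differed by -4.02 ± 0.90 (adjusted p = 0.0279), with 178, 245 and 50.7 TPM in WT and 4.18, 19.1 and 2.58 TPM in knockout HFD livers. Malat1, a nuclear-retained RNA, differed by 2.44 ± 0.67 (adjusted p = 0.0444) and the splicing factor Rbm25 by 1.27 ± 0.23 (adjusted p = 0.0207). The ribosomal protein gene Rpl38 differed by 1.26 ± 0.34 (adjusted p = 0.0437). Asparagine synthetase, Asns, differed by -1.37 ± 0.36 (adjusted p = 0.0403), with 1.55 on LFD and 0.19 on HFD. The respiratory chain genes Sdhd and Uqcrc2 differed by -1.64 ± 0.46 (adjusted p = 0.0452) and -1.05 ± 0.30 (adjusted p = 0.0493). The knockout HFD libraries stand apart from all others, and the part of that in these differences was not tested.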

How the results depend on the processing

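Of 2947 values of named genes under the alternatives, 2513 kept direction and side of the threshold, 319 lost and 112 gained the call, and 3 changed sign: Hba-a1 at -0.40 and Scap at 0.014 with LFD libraries only, and Cela1 at -0.13 with HFD libraries only. None was called in the main fit. The averaged count of 1149 became 640 with no filter, 607 at a minimum of 5 TPM, 2141 with median-ratio scaling, 1963 with quantile normalization, 665 without the diet covariate, 2580 with 1 mean per group, 4112 with array weights, 4175 with HFD libraries only and 1 (Saa1) with LFD libraries only. Leaving out 1 library gave 219 to 1527. The share of calls that were higher, 54.1%, was 65.5% with no filter, 39.7% at 5 TPM, 42.4% with 1 mean per group, 44.0% with weights and 30.9% on HFD only. Alike genes numbered 205 at 5 TPM, 673 with median-ratio scaling (303 shared), 644 with quantile normalization (312 shared), 214 with a size ratio of 0.75, and 177 to 600 leaving out 1 library. The LFD count of 19 was 8 at a pseudocount of 0.1, 12 with no filter, 52 and 45 with the 2 scalings, 71 with weights and 4 to 64 leaving out 1 library. With weights the HFD count was 7733 and the difference between diets 4893. That difference was 182 with no filter and 24 to 2047 leaving out 1 library, and the HFD count 2327 to 4652. The cause was not tested, apart from the fewer samples or genes some alternatives hold by construction. With LFD libraries only, no endothelial, Kupffer, matrix or oxidation gene was called. With HFD libraries only, 16 endothelial, 7 Kupffer and 8 matrix genes were called higher and 20 oxidation genes lower. In that fit 1 Kupffer and 1 matrix gene were called lower. With no filter Kupffer, matrix and oxidation calls were 3, 4 and 9, at 5 TPM endothelial and matrix calls 10 and 5, and with median-ratio scaling matrix calls 18. The exact permutation p of Lix1l ranged from 0.2 to 0.53, and that of Cd36 was 0.02 under the 4 alternatives run for it.

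Animal numbers are shared by some livers of different groups, and no pairing by number was seen. Deviations from group means correlated by -0.26 to 0.10 over 5 same-numbered pairs. Only 1 of 10 libraries correlated best outside its group with its own number. So few pairs cannot exclude shared litters or cages. With the number as a replicate block 1900 genes were called, 30.3% of them higher, including 7 endothelial, 3 Kupffer, 2 matrix and 16 oxidation genes. In that fit WT LFD animals 7 and 8 share their number with no other library, so they add nothing to the genotype change. Number 5 occurs only in knockout livers. Depth is unknown, so no limit from counting can be given.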

Other observations

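Several alike genes outside the lists, chosen after their values were seen, had no overlap between the 6 and 6 livers. Gm16867, annotated at chr14:69363504-69503362, was at 0.96 to 1.38 TPM in the 6 WT livers and 0 to 0.21 TPM in the 6 labelled knockout, 4 of which were listed at 0. Its neighbour Gm27177 (chr14:69582164-69683286) was at 0.96 to 1.38 TPM in WT and 0 to 0.31 TPM in knockout livers, and Entpd4b (chr14:69555424-69585520) at 5.29 to 14.2 and 1.95 to 3.69 TPM. Entpd4b and Gm27177 overlap on opposite strands, and all 3 have at least 0.5 of their 31-base words in other genes, so their values are uncertain. Gm16867 and Gm27177 passed the level for testing only through WT livers. Wdfy1 was at 0.96 to 1.88 TPM in WT and 2.56 to 4.94 TPM in knockout livers, with log2 changes of 1.10 on LFD and 1.06 on HFD.

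Nnt, the mitochondrial nicotinamide nucleotide transhydrogenase, was at 21.6, 32.04 and 32.1 TPM in WT and 48.2, 65.4 and 57.1 TPM in knockout livers on LFD and at 24.7, 26.8 and 21.5 and 30.1, 52.4 and 61.4 TPM on HFD, under 1 of 2 overlapping identifiers with that symbol. As background, the Nnt gene of one widely used C57BL/6 substrain lacks several exons that others keep. The labels call the WT animals littermates and give no strain.

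The pseudogene Gm45665 (chr8:91152207-91152374) was listed at 0 in 5 of the 6 WT livers and at 6.56 TPM in WT LFD animal 7, against 7.94 to 26.8 TPM in the livers labelled knockout. Without the livers labelled knockout Gm45665 would not have reached the level for testing. Actb, often used as a reference gene, was alike and higher in the livers labelled knockout by 0.77 ± 0.14, from 168, 171 and 150.3 TPM to 291, 259.9 and 252 TPM on LFD and from 237, 245 and 228 to 329, 440.3 and 516 TPM on HFD.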
